A study of Mus musculus with 24 samples.

Results

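Macrophages of the congenic strain BC-R3 were compared with macrophages of B6 after exposure to flagellin, using 6 of the 24 arrays of the study, 3 for each strain. The arrays were chosen by their labelled strain and condition, and no measured value entered that choice. All mice, those of the B6 control included, were male and lacked a working Il10 gene, which encodes an anti-inflammatory cytokine. B6 is labelled C57BL/6J-Il10tm1Cgn. BC-R3 is labelled B6.Cg-Il10tm1Cgn Cdcs1 and carries the Cdcs1 region of the colitis-susceptible strain C3Bir on the colitis-resistant B6 background. The comparison asks what the C3Bir form of Cdcs1 changes in B6 macrophages that have met flagellin. Bone marrow cells of 3 mice per genotype were cultured for 6 days in medium with fetal calf serum, and the labels name no growth factor. Flagellin of the Cbir1 type, an antigen of commensal gut bacteria, was added at 1 µg/mL for the last 4 h. The RNA of 3 wells was pooled for each array. Ages are not given, and the array numbers 1 to 3 are not tied to individual mice, so the p-values rest on spread between arrays, part of which may be technical. The reciprocal strain CB-R1, labelled C3Bir.Cg-Il10tm1Cgn Cdcs1, has the C3Bir background (C3H/HeJBir-Il10tm1Cgn) and holds Cdcs1 from B6 within a long stretch of B6 chromosome 3. C3Bir, CB-R1 and the unstimulated arrays serve here only to set the same genes in other samples.

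Cdcs1 is a locus on the distal part of mouse chromosome 3 that modifies colitis in mice without IL-10, which normally restrains macrophage responses to gut bacteria. Flagellin is sensed at the cell surface by TLR5, which signals through MyD88 and NF-kB, and in the cytosol by NAIP5, which assembles an inflammasome. A congenic strain carries a block of chromosome from another strain, so any gene in the block can differ in sequence as well as in expression.

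Some features of the arrays bear on what follows. Values are log2 signals per probe set as deposited. The array medians lay between 6.55 and 6.64, and the lower quartiles between 5.29 and 5.42. Arrays of B6 with flagellin correlated with each other at 0.9872 to 0.9935 and those of BC-R3 with flagellin at 0.9959 to 0.9976. The mean over 19 cytokine genes was 7.53 to 7.89 on the B6 arrays labelled flagellin and 7.64 to 7.86 on the BC-R3 arrays. On the B6 arrays labelled unstimulated it was 8.08, 9.83 and 9.88, so cytokine signal was lower with flagellin than without it in B6. In BC-R3 the unstimulated arrays had 8.08, 7.40 and 7.36. The arrays labelled unstimulated thus do not form an even baseline, and groups are named by their labels throughout. The Il10 probe set gave 7.07, 6.91 and 6.72 in B6 and 6.99 to 7.25 in BC-R3; its place relative to the disruption is not known here. The macrophage markers Adgre1 and Csf1r had means of 12.93 and 13.83 in B6 and 12.91 and 13.89 in BC-R3. The neutrophil marker S100a8 was also high, at 13.08 in B6 and 13.33 in BC-R3. The fibroblast collagen gene Col1a1 was at 9.47 ± 1.29 and 9.74 ± 0.99 (SD, n = 3), so genes typical of other cell types gave signal too.

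Of 18194 genes, limma called 3, which is 0.0165% of the genes tested, at a Benjamini-Hochberg adjusted p under 0.05. Ifi44l and Gbp2b were higher in BC-R3 (0.0110% of genes called higher) and Olfml3 was lower (0.00550% called lower). All of them lie on distal chromosome 3. With 1 probe set taken for each gene, these were also the only 3 genes whose group means differed by 2-fold or more. Among probe sets outside the 18194 genes, 1423555_a_at, unnamed here, differed by 3.96 ± 0.49.

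The promoters of the called genes are shown because these were the genes called between the strains. Each is the RefSeq reference sequence of the 250 bases before the gene's start on build GRCm38.p6, read 5′ to 3′ on the gene's strand. The reference is of C57BL/6J, so it stands for the B6 form, and the C3Bir sequence was not used here. Capitals mark a match to the interferon-stimulated response element, searched as GAAA, NN and GAAA in a row on both strands.
Gbp2b, chr3:142594597-142594846, plus strand: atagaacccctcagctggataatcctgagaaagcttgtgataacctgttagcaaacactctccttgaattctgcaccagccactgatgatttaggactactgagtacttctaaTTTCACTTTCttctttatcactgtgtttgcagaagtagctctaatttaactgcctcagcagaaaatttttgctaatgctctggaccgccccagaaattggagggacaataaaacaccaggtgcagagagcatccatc
Ifi44l, chr3:151762892-151763141, minus strand: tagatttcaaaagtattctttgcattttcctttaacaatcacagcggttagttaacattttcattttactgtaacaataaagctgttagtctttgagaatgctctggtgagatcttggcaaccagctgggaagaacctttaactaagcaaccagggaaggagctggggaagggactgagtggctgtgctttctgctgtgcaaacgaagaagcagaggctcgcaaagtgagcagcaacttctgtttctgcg
Olfml3, chr3:103738002-103738251, minus strand: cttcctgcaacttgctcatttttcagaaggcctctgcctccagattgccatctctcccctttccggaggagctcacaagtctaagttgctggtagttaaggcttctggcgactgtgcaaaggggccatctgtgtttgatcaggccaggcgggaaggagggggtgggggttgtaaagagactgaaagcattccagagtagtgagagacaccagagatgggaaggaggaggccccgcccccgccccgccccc
The window of Gbp2b held 1 match, TTTCACTTTC, which began 137 bases before the start. Such a match occurred in 1131 of 32851 RefSeq windows of 300 bases (250 before to 50 after a start), or 3.44%. It also occurred in the windows of the neighbouring genes Gbp2 (1 of 1), Gbp7 (1 of 1) and Gbp3 (1 of 2). The windows of Ifi44l and Olfml3 held no match. The gamma-activated motif TTCNNNGAA, found in 8.3% of windows, was in none of the windows of the called genes. These are matches of letters and do not show binding.

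Ifi44l, an interferon-induced gene also listed by RefSeq as the minor histocompatibility gene H28, had the largest difference. Its log2 signal was 5.15, 5.26 and 4.99 in B6 with flagellin and 9.84, 9.78 and 10.25 in BC-R3 with flagellin. The B6 arrays all lay at or below the lower quartile of signals and the BC-R3 arrays far above it. The difference was 4.82 ± 0.34 (log2, ± SE; adjusted p = 1.09e-07). No fold is given, because the B6 signal was too close to the bottom of the range. A second probe set, 1425917_at, gave 5.77, 4.68 and 5.05 in B6 against 9.15, 8.92 and 9.36 in BC-R3, a difference of 3.97 ± 0.35. The remaining probe set, 1450301_at, was dim in both strains, at 3.78 to 4.06 and 4.34 to 4.45, and its difference was 0.48 ± 0.13. The strains did not overlap on any of the 3 probe sets.

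Gbp2b encodes a guanylate-binding protein of the interferon-inducible GTPases that act on intracellular microbes. Its log2 signal was 5.69, 5.74 and 5.61 in B6 and 9.63, 9.66 and 10.37 in BC-R3, with no overlap. The difference was 4.21 ± 0.57 (log2, ± SE; adjusted p = 0.00218), again from a B6 level near the lower quartile. Gbp2b has 1 probe set on the array, so no second measurement of it exists here.

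Olfml3, which encodes a secreted glycoprotein of the olfactomedin family, was the gene that was lower. Its log2 signal was 10.41, 10.20 and 10.56 in B6 and 8.07, 7.98 and 7.68 in BC-R3. Both strains were well above the lower quartile and did not overlap. Arrays of the 2 strains did not overlap for 6.60% of all genes. The difference was −2.48 ± 0.19 (log2, ± SE; adjusted p = 3.13e-07), which is 5.58-fold lower in BC-R3 (95% interval 4.23 to 7.36). It too has 1 probe set. Whether the sequence read by the probe sets of the called genes differs between the strains was not tested. The fold is therefore that of the signal. Since Olfml3 can also be made by stromal cells, the stromal markers were set beside it. The mean of 17 stromal markers was 7.82, 8.71 and 7.24 on B6 arrays 1, 2 and 3 and 8.37, 8.29 and 7.54 on the BC-R3 arrays. That range overlapped between the strains where Olfml3 did not, and its part in the result was not tested. In bulk samples fewer cells of a type and less RNA per cell cannot be told apart.

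**Figure D1:**
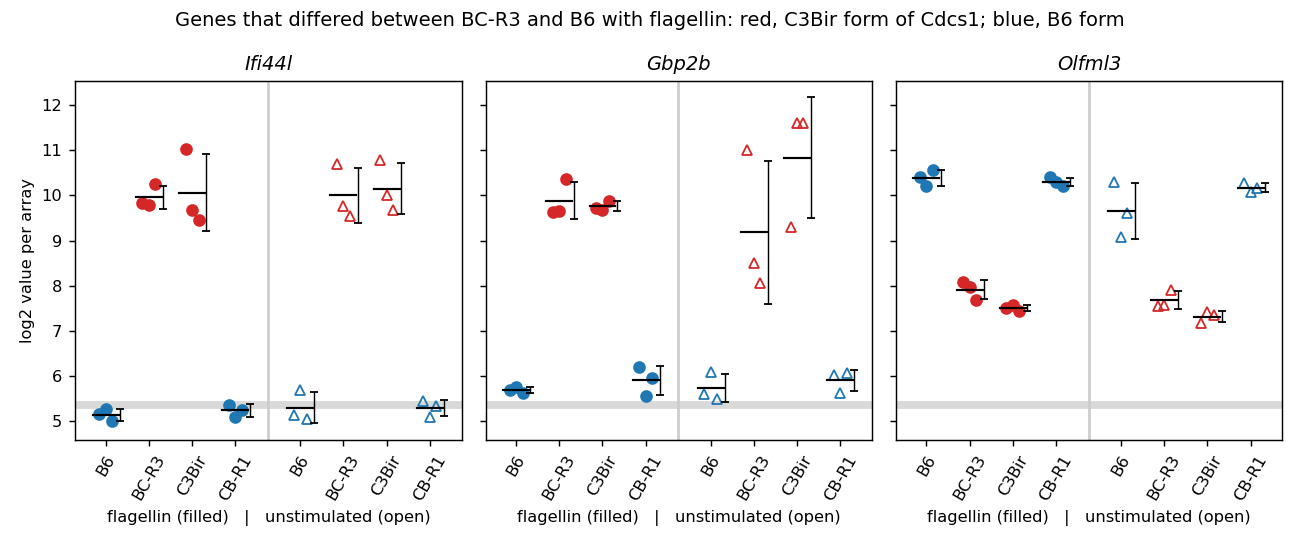
Log2 signal of Ifi44l, Gbp2b and Olfml3 on each of the 24 arrays, by strain and condition. Filled circles are flagellin arrays and open triangles unstimulated arrays; red marks strains with the C3Bir form of Cdcs1 and blue those with the B6 form. Horizontal lines are group means, brackets are SD (n = 3), and the grey band spans the arrays' lower quartiles. In each gene the red and blue arrays do not overlap in either condition.

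The same 3 genes separated the strains without flagellin, where 30.3% of genes were called. That count, 5513 genes, was 7 in a fit of those 6 arrays alone. Without unstimulated arrays 2 and 3 of B6 and C3Bir, 1 unstimulated B6 array remains, so no count is given for that fit. Ifi44l was at 5.14, 5.68 and 5.04 on unstimulated B6 arrays and at 10.70, 9.76 and 9.54 on BC-R3 arrays, a difference of 4.72 ± 0.34 (adjusted p = 1.66e-07). Gbp2b was at 5.60, 6.08 and 5.49 in B6 and at 11.00, 8.50 and 8.05 in BC-R3, a difference of 3.46 ± 0.57 (adjusted p = 6.55e-04). The BC-R3 arrays of Gbp2b were thus spread over almost 3 log2 units, against less than 1 with flagellin. Olfml3 was at 10.30, 9.07 and 9.60 in B6 and at 7.55, 7.58 and 7.90 in BC-R3, a difference of −1.98 ± 0.19 (adjusted p = 1.63e-05). The strain difference with flagellin minus that without was 0.11 ± 0.48 for Ifi44l, 0.75 ± 0.80 for Gbp2b and −0.50 ± 0.27 for Olfml3 (adjusted p = 0.898, 0.549 and 0.213). None passed the threshold, which 10.5% of genes passed, and the standard error of Gbp2b leaves room for a sizeable change.

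The reciprocal congenic strain gave the same directions on arrays that share no sample with BC-R3 and B6. With flagellin, Ifi44l was at 11.04, 9.68 and 9.46 in C3Bir and at 5.36, 5.09 and 5.24 in CB-R1, which holds the B6 form. Gbp2b was at 9.72, 9.68 and 9.88 in C3Bir and at 6.20, 5.56 and 5.94 in CB-R1. Olfml3 was at 7.51, 7.56 and 7.44 in C3Bir and at 10.40, 10.29 and 10.22 in CB-R1. For these genes each strain thus followed the form of the locus it carried and not its background. C3Bir minus CB-R1 was 4.83 ± 0.34 for Ifi44l, 3.87 ± 0.57 for Gbp2b and −2.80 ± 0.19 for Olfml3 (adjusted p = 5.33e-08, 0.00446 and 5.33e-08). The difference on the B6 background minus that on the C3Bir background was −0.01 ± 0.48, 0.34 ± 0.80 and 0.32 ± 0.27, with adjusted p of 0.899 or more. On unstimulated CB-R1 arrays the levels were 5.08 to 5.44 for Ifi44l, 5.62 to 6.06 for Gbp2b and 10.08 to 10.27 for Olfml3.

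The parent strains differed by similar amounts, in a comparison that uses the same B6 arrays and so adds no independent value. C3Bir minus B6 with flagellin was 4.92 for Ifi44l, 4.08 for Gbp2b and −2.89 for Olfml3. In the parental comparison 1207 genes were called (6.63% of those tested), against 3 between BC-R3 and B6 and 10 between C3Bir and CB-R1 (0.0550%). With the replicate number as a block the count between C3Bir and CB-R1 was 21. Ifi202b, an interferon-inducible gene on another chromosome, was 5.52 higher in C3Bir than in B6, while BC-R3 minus B6 was −0.04 ± 0.23. The other genes called between C3Bir and CB-R1 were lower in C3Bir: Ppbp, Mcoln3, Chil3, Adgrg3, Pxylp1, Gstp1 and H2bc18.

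By RefSeq gene order, Olfml3 was number 602, Gbp2b number 832 and Ifi44l number 874 of the 913 measured genes of chromosome 3. The genes next to them did not follow. Beside Olfml3, Syt6 differed by 0.11 ± 0.09 and Hipk1, a nuclear kinase, by 0.01 ± 0.07. Beside Ifi44l, the adhesion receptor gene Adgrl4 differed by −0.01 ± 0.12 and the prostaglandin F receptor gene Ptgfr by 0.03 ± 0.08. Gbp2b sits in a cluster of guanylate-binding protein genes. Gbp3 differed by 0.36 ± 0.65, Gbp7 by 0.46 ± 0.59 and Gbp2 by −0.38 ± 0.62 (adjusted p = 0.9998 each). Gbp3 was at 9.53, 7.98 and 8.30 in B6 and 8.80, 8.58 and 9.51 in BC-R3, and Gbp2 was at 10.46, 9.29 and 9.66 against 9.21, 9.26 and 9.80. The strains overlapped for these neighbours, but their intervals were wide: that of Gbp3 ran from −0.99 to 1.71 and that of Gbp2 from −1.66 to 0.91.

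**Figure D2:**
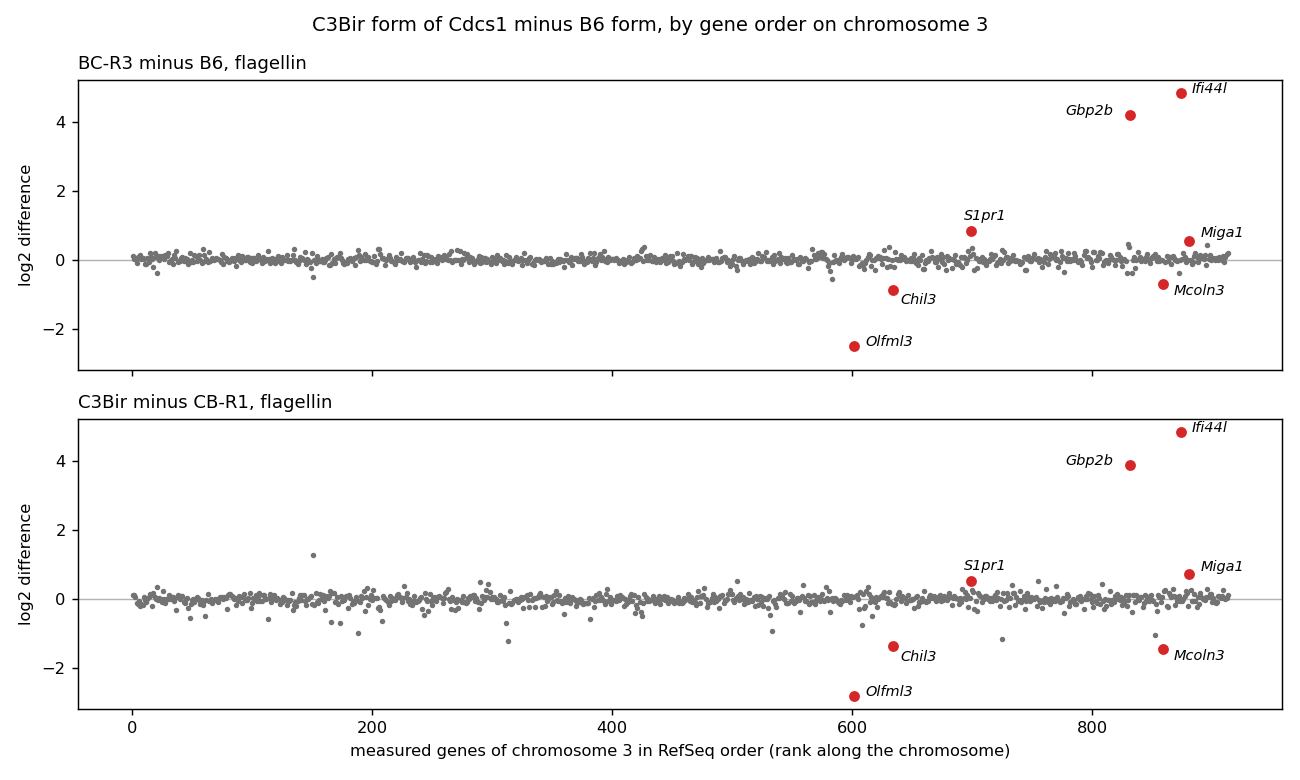
Difference in log2 signal with flagellin for the 913 measured genes of chromosome 3, in RefSeq gene order, for BC-R3 minus B6 (top) and C3Bir minus CB-R1 (bottom). Ifi44l (4.82 and 4.83), Gbp2b (4.21 and 3.87) and Olfml3 (−2.48 and −2.80) stand far from zero in both; red points are genes named in the text.

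Below the threshold, differences were examined as a description. At an unadjusted p under 0.05 there were 662 genes, or 3.64% of those tested, of which 402 were higher in BC-R3 (2.21%) and 260 lower (1.43%). Of the 273 genes from Olfml3 to Ifi44l, 32 reached this level (11.7%), the 3 called genes included. On chromosome 3 before Olfml3 it was 33 of 601 (5.49%), and on the other chromosomes 582 of 17119 (3.40%). The stretch was bounded by called genes of the comparison itself, so these shares carry no test. Of the 32 genes, 14 also had an unadjusted p under 0.05 in C3Bir minus CB-R1 with the same sign, and 0 had the opposite sign. Over all genes, 8.09% had an unadjusted p under 0.05 in C3Bir minus CB-R1, and 46.8% had the same sign in both comparisons. Leaving out the called genes, 11 of 29 genes of the stretch had an unadjusted p under 0.05 in both comparisons with the same sign. Of the 33 genes before Olfml3, 1 did, and 3 had it with the opposite sign. Of the 582 on the other chromosomes, 14 had it with the same sign and 54 with the opposite. By sign alone, whatever the p in C3Bir minus CB-R1, the same sign was found for 23 of the 32 (71.9%) and 256 of the 582 (44%).

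**Figure D3:**
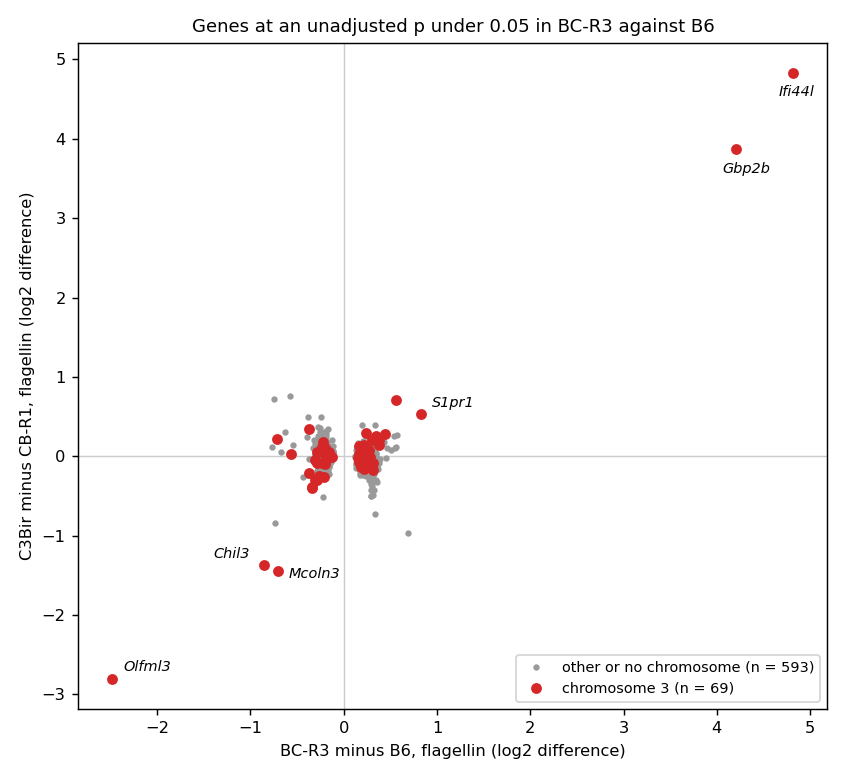
Log2 difference with flagellin in BC-R3 minus B6 (horizontal) and in C3Bir minus CB-R1 (vertical) for the 662 genes at an unadjusted p under 0.05 in the former. Red points are the 69 genes of chromosome 3 and grey points all others; Ifi44l, Gbp2b and Olfml3 lie far out along the diagonal in both comparisons.

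The next genes of the stretch are given as values, chosen after these had been seen. Mcoln3 encodes a cation channel of endosomes and lysosomes. It was at 6.70, 6.92 and 6.81 in B6 and at 6.05, 6.11 and 6.14 in BC-R3, without overlap, a difference of −0.71 ± 0.13 (adjusted p = 0.105). Its second probe set differed by −0.78 ± 0.15. C3Bir minus CB-R1 was −1.44 ± 0.13 (adjusted p = 2.89e-06). With only the 12 flagellin arrays in the limma fit, Mcoln3 passed the threshold (adjusted p = 0.0152). The related channel gene Mcoln2 was at 9.57, 9.72 and 9.25 in B6 and at 8.74, 8.69 and 8.95 in BC-R3, a difference of −0.72 ± 0.26. For Mcoln2, C3Bir minus CB-R1 was 0.22 ± 0.26, of the other sign.

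S1pr1 encodes a receptor for sphingosine 1-phosphate, a lipid that guides immune cell movement. It was at 9.36, 9.33 and 9.36 in B6 and at 10.19, 10.23 and 10.12 in BC-R3. The arrays within each strain lay within 0.2 of each other, and the difference was 0.83 ± 0.23 (adjusted p = 0.9998). In the fit of the 12 flagellin arrays the limma standard error was 0.07 and the adjusted p 2.32e-04. C3Bir minus CB-R1 was 0.53 ± 0.23. Without flagellin BC-R3 minus B6 was 1.81 ± 0.23.

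Chil3, a chitinase-like gene of alternatively activated macrophages, was at 12.63, 11.76 and 11.73 in B6 and at 11.31, 11.06 and 11.17 in BC-R3. The difference was −0.86 ± 0.24 (adjusted p = 0.9998), and C3Bir minus CB-R1 was −1.37 ± 0.24 (adjusted p = 0.0291). Miga1, for a mitochondrial outer membrane protein, was at 6.73, 6.85 and 6.91 in B6 and at 7.53, 7.43 and 7.19 in BC-R3. It differed by 0.56 ± 0.15, by 0.28 ± 0.08 on its second probe set, and by 0.71 ± 0.15 in C3Bir minus CB-R1. Neither gene passed the threshold in BC-R3 against B6.

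For the zinc transporter gene Slc30a7 the probe sets went opposite ways. The brighter one gave 9.53, 9.60 and 9.43 in B6 against 9.31, 9.13 and 9.20 in BC-R3, a difference of −0.31 ± 0.08. The other, 1435717_at, gave 8.44, 8.77 and 8.36 against 8.90, 8.93 and 9.03, a difference of 0.43 ± 0.11. In C3Bir minus CB-R1 they gave −0.30 and 0.47, so the opposite signs recurred on other arrays. Pdlim5, a scaffold gene next to the guanylate-binding proteins, differed by −0.37 ± 0.09, and 1 of its 7 probe sets, 1429783_at, by 0.27 ± 0.12. Fabp4, for a fatty acid carrier, lies at the other end of the chromosome. It differed by −0.37 ± 0.10 in BC-R3 minus B6 and by 0.35 ± 0.10 in C3Bir minus CB-R1. The sign also changed on 1451263_a_at (−0.27 and 0.54), but not on 1424155_at (−0.64 and −0.18) or 1425809_at (−0.13 and −0.01).

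Genes of flagellin sensing and of the cytokine output gave no call. Tlr5 was at 7.33, 7.14 and 7.28 in B6 and at 7.02, 7.15 and 7.31 in BC-R3, a difference of −0.09 with a 95% interval of −0.29 to 0.12. Naip5 differed by 0.16 (−0.21 to 0.54) and Myd88 by −0.03 (−0.42 to 0.36). For these genes the intervals exclude a 2-fold difference. Tnf was at 10.90, 10.69 and 10.13 in B6 and at 10.02, 9.80 and 10.95 in BC-R3, and differed by −0.32 (−1.62 to 0.99). Il1b differed by 0.17 (−1.45 to 1.79) and the T cell chemokine gene Cxcl10 by 0.02 (−1.73 to 1.77). The intervals of Il1b and Cxcl10 include 2-fold differences either way, and that of Tnf a 2-fold lower level. The standard errors of Tnf, Il1b and Il6 were 0.63, 0.78 and 0.99 with all 24 arrays in the fit and 0.26, 0.28 and 0.10 with the 12 flagellin arrays, where limma called none of them either (adjusted p = 0.9997 each). Il6 and Il12b, for pro-inflammatory cytokines, were at 3.88 to 4.31 and 5.65 to 6.92 on the 6 arrays. For Il6 all 6 values lay below the lower quartiles of the arrays (5.29 to 5.42). Its small standard error in the fit of the flagellin arrays therefore says little about Il6 output. Nos2, for the inducible nitric oxide synthase, differed by 0.00 (−0.59 to 0.59).

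Interferon-stimulated genes were examined because Ifi44l and Gbp2b belong to that class. None of 31 others, Ifi44l and Gbp2b being left out, was called or reached an unadjusted p under 0.05, where 3.64% of all genes did. Their median difference was 0.19, against 5e-04 over all genes, with 28 positive and 3 negative and a median standard error of 0.39. They ranged from −0.13 for Parp14 to 0.41 for Rtp4. The mean over the list was 11.03, 9.26 and 9.80 on B6 arrays 1, 2 and 3 and 10.06, 10.02 and 10.54 on the BC-R3 arrays. So B6 array 1 lay above all BC-R3 arrays and the other B6 arrays below them. Mx1, an antiviral GTPase, was also highest on B6 array 1, at 10.60, 7.23 and 8.32 in B6 and 8.60, 8.22 and 9.56 in BC-R3. On B6 array 1 Ifi44l and Gbp2b read 5.15 and 5.69, close to the lower quartile as on the other B6 arrays. In BC-R3 both genes were highest on array 3, as the list was. On the unstimulated BC-R3 arrays the list means were 11.03, 9.90 and 9.73, and both genes were highest on array 1, as the list was. The cytokine list was also highest on BC-R3 flagellin array 3 (7.86) and unstimulated array 1 (8.08). In C3Bir the interferon list was highest on array 1 in both conditions, and so was Ifi44l. Gbp2b was not, at 9.72, 9.68 and 9.88 with flagellin and 9.29, 11.61 and 11.61 without. Among 11 interferon-inducible GTPases 1 was called, Gbp2b itself, and the list median was 0.09.

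No gene of the other lists was called. Cytokines (19 genes), chemokines (21), NF-kB pathway genes (23) and pattern recognition genes (27) had medians of −0.01, 0.01, −0.04 and −0.02, with 0 called and 0 at an unadjusted p under 0.05. Antigen presentation (21) was at −0.07, macrophage effector genes (22) at −0.03 and alternative activation genes (19) at −0.02. In the last, Chil3 was lowest and Klf4, a transcription factor, was at 0.51 ± 0.18. Of 26 lysosome genes 23 were negative and the median was −0.06. The list means were 11.76, 11.82 and 11.85 in B6, in rising order, and 11.69, 11.69 and 11.72 in BC-R3, so the strains did not overlap. Taken singly, 6.60% of all genes did not overlap. At an unadjusted p under 0.05 were 2 of these genes, Mcoln2 (−0.72) and Mcoln3 (−0.71), both lower, where 1.43% of all genes were. They are neighbours on chromosome 3 between Gbp2b and Ifi44l, and their part in the list means was not tested. The median of 20 NRF2 and antioxidant genes was −0.10, and 3 of them, Gsta3 (−0.54), Cat (−0.22) and Gstp1 (−0.22), had an unadjusted p under 0.05, all lower, where 1.43% of all genes did. Proliferation genes (27) had a median of 0.16, with 24 positive. Of these, 2 had an unadjusted p under 0.05 and were higher, Bub1 (0.36 ± 0.12) and Kif11 (0.29 ± 0.11), where 2.21% of all genes were. Their list means overlapped, at 7.75 to 7.96 in B6 and 7.80 to 8.15 in BC-R3. Immediate early genes (24) had a median of 0.13, with 17 positive, and list means of 9.30 to 9.54 in B6 and 9.44 to 9.56 in BC-R3. Medians were, for sterol genes (21), −0.08 and, for glycolysis genes (21), −0.06.

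For most cell types the marker means overlapped between the strains; those of B cells did not. The mean over 28 macrophage identity genes was 11.22 to 11.65 in B6 and 11.46 to 11.53 in BC-R3. The median difference of 17 stromal markers was 0.20, with 13 positive, and that of 13 neutrophil markers was 0.20, with list means of 9.74 to 10.41 in B6 and 10.09 to 10.18 in BC-R3. The 11 B cell markers had a median of 0.09, with 8 positive, and their list means were 6.33, 6.35 and 6.41 in B6, in rising order, against 6.42, 6.44 and 6.49 in BC-R3. These B cell means lay below the medians of all arrays (6.55 to 6.64). Taken singly, 6.60% of all genes did not overlap. The part of this small shift in the other results was not tested. T and NK markers had a median of 0.00. Those of dendritic cells and osteoclasts were 0.04 and −0.07. The medians for the granulocyte lists were 0.05 (mast cell and basophil) and −0.01 (eosinophil). Erythroid and megakaryocyte markers had 0.01, and the list of endothelium and adipocytes −0.02. None of these markers was called. Ms4a1, a B cell gene, differed by 0.36 ± 0.10 and Tnfrsf11a, an osteoclast gene, by −0.39 ± 0.13, both at an adjusted p of 0.9998.

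**Figure D4:**
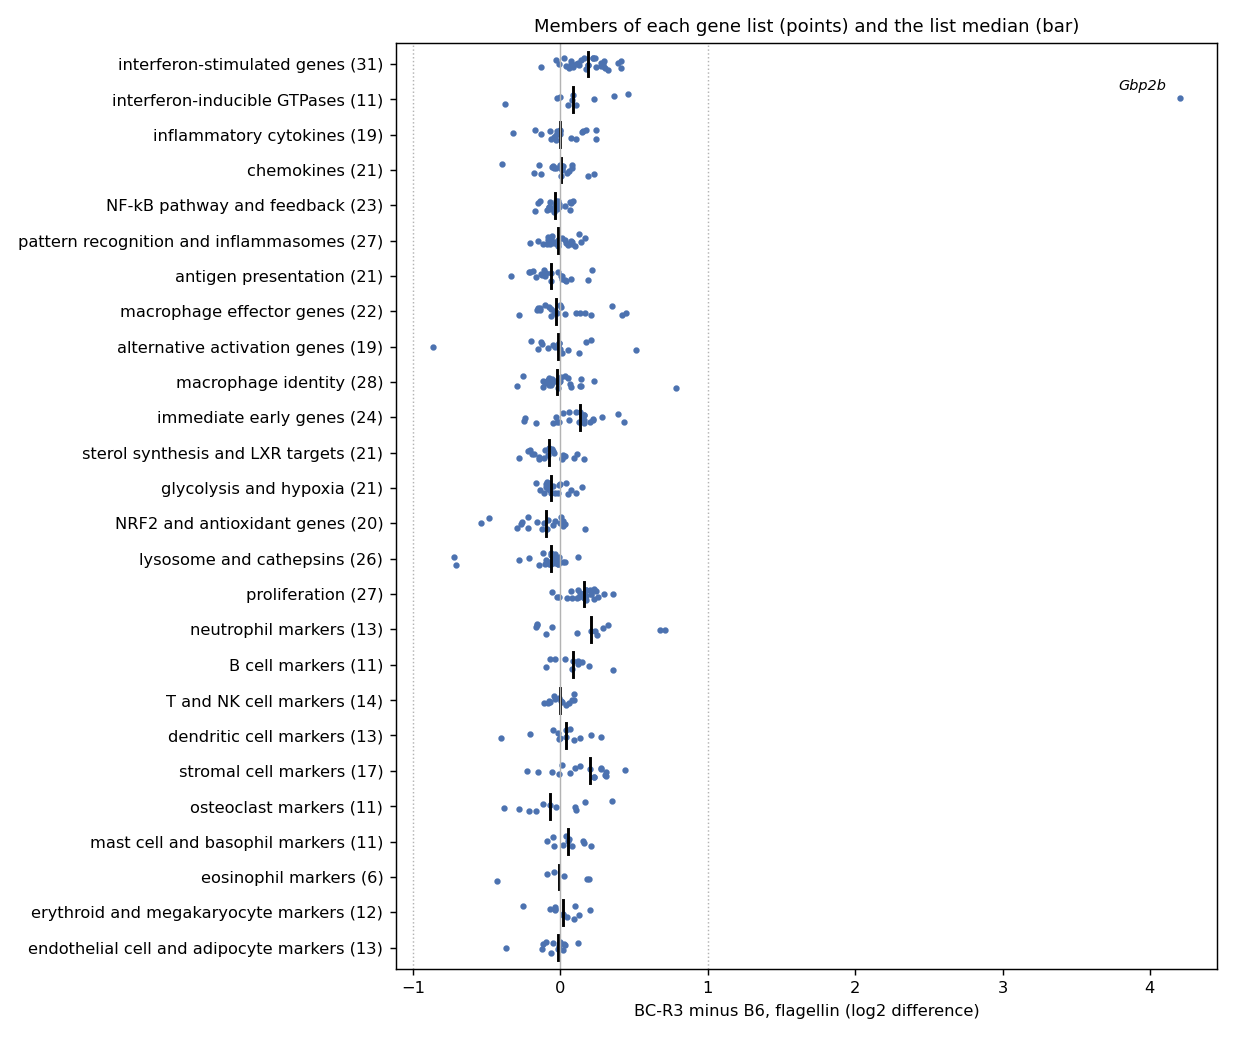
Log2 difference, BC-R3 minus B6 with flagellin, of each measured member of 26 gene lists (points, with random vertical spread) and the list median (bar); the number of genes is in brackets and dotted lines mark a 2-fold difference. All points but Gbp2b (4.21) lie between the dotted lines, and the medians lie between −0.10 and 0.20.

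The data limit what could be missed. The median standard error of the difference was 0.09, and for 18003 genes, or 99%, the 95% interval lay within 2-fold in both directions. Genes outside that share include Tnf, Il1b, Cxcl10 and Mx1. Genes were not filtered on signal, so the share also counts genes near the bottom of the range. For those a narrow interval says little about a change in expression. With all 45033 probe sets tested singly, 10 were called. They were those of Gbp2b and Olfml3, both brighter ones of Ifi44l, 1 each of Stap2 and Dph5, and 4 that are unnamed here. The Dph5 probe set, 1439049_at, lies on chromosome 3 between the called genes and differed by −0.58 ± 0.10, with C3Bir minus CB-R1 at −0.80. The Stap2 probe set, 1424148_a_at, of chromosome 17, differed by 0.63 ± 0.11 with flagellin and by −0.67 without it.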

How the data were processed

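Total RNA was measured on Affymetrix arrays, 24 in all, in 8 groups of 3 (4 strains, with and without flagellin). The values, deposited by the authors in 1 table, are on the log2 scale; their summary and normalization methods are not given in the sources used. The table holds 45037 probe sets, of which 4 were empty. They were neither renormalized nor filtered, since array medians lay within 0.1. Genes were named through GEO's platform annotation, which lists 35877 probe sets; 932 with several symbols were left out, and 34944 gave 18194 genes, each represented by its probe set of highest mean. Gene order came from a RefSeq table (18032 genes placed).

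In limma 3.58.1 (R 4.3.3) the 8 group means were fitted to all 24 arrays (16 residual and 3.99 prior degrees of freedom), with eBayes at default settings, two-sided tests and Benjamini-Hochberg adjustment within a contrast. The fit was run on simulated data with independent noise for each gene and array. Shifts shared by many genes of an array, as on the unstimulated arrays, were not simulated. The members and the 26 gene lists (522 genes, 467 measured, the rest not analysed here) were chosen with earlier results of these data known. Named genes were the called ones, 32 genes listed for flagellin sensing, cytokines and the locus, and the largest calls of the differences between conditions and backgrounds; others are said to be chosen after their values were seen. Deviations of equally numbered B6 and BC-R3 flagellin arrays correlated at 0.14, 0.35 and 0.12, and those of unequally numbered ones at −0.36 to 0.17. Unstimulated arrays of equal number correlated at −0.41, −0.29 and −0.29. The numbers were therefore not used as pairs in the main fit, and a replicate block was an alternative only. Alternatives concerned the normalization (quantile, median centring), low values, the probe set chosen, the arrays fitted, eBayes options, a replicate block, a 2-fold threshold and single arrays left out.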

Additional observations from a re-analysis of the deposited data

Results flagged for a closer look

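Genes were listed here where the strain difference changed between conditions or backgrounds. The BC-R3 minus B6 difference differed between flagellin and no flagellin for 1917 genes (10.5% of those tested by limma). Among the largest were Il6 (4.56), Cd69 (4.29), Il1b (3.80), Mx1 (3.43) and Ccl5 (3.32), and on the other side Cnr2 (−2.29), Gpr183 (−2.10), Arrdc3 (−2.03), Fli1 (−1.91) and Ncapg2 (−1.89). In these the strains were close with flagellin and apart without it: Il6 was at 3.88 to 4.31 on the 6 flagellin arrays, at 4.69, 10.93 and 11.20 on unstimulated B6 arrays and at 4.89, 3.96 and 3.91 on unstimulated BC-R3 arrays. Without unstimulated arrays 2 and 3 of B6 and C3Bir 0 genes were called, with 1738 at an unadjusted p under 0.05.

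The difference between strains with the C3Bir and the B6 form of the locus changed between the B6 and the C3Bir background for 3 genes (0.0165%). In the fit of the flagellin arrays alone 0 genes were called, although 1422 had an unadjusted p under 0.05. When 1 array was left out the count was 0 to 8. The 3 genes were Ppbp, a platelet chemokine gene (1.68), Adgrg3, an adhesion receptor gene (1.07), and Pgap1, of GPI anchor processing (−1.34). They lie on chromosomes 5, 8 and 1, and the part of the locus in them was not tested. Ppbp was at 9.42, 9.45 and 8.89 in B6 and 9.36, 9.32 and 9.68 in BC-R3, but at 7.30, 7.33 and 7.52 in CB-R1 and 6.26, 5.97 and 5.46 in C3Bir.

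Among probe sets unnamed here, 4 were called when all were tested. Probe set 1423555_a_at differed by 3.96 ± 0.49, at 7.82, 5.93 and 6.55 in B6 and 10.66, 10.52 and 10.99 in BC-R3. Without flagellin it differed by 1.63 ± 0.49. With flagellin, C3Bir minus CB-R1 was 1.42 ± 0.49 (limma adjusted p = 0.367), with CB-R1 at 9.13, 8.93 and 9.83. Probe sets 1429083_at, 1447971_at and 1454503_at differed by −0.75, 0.43 and −0.80.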

How the results depend on the processing

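Gbp2b, Ifi44l and Olfml3 were called in each of 18 alternatives, the added one included, with differences of 3.96 to 4.33, 3.09 to 4.91 and −2.57 to −2.37; the 3.09 came from averaging the probe sets of Ifi44l. The count of 3 became 10 with all probe sets and 5 with the 12 flagellin arrays alone (S1pr1 and Mcoln3 in addition), and 3 to 4 when arrays were left out in turn; AU016916 was the addition without B6 flagellin array 3. The replicate block, also in a fit of the 6 arrays alone chosen after seeing the data, left 3 calls of the same 3 genes and changed no call of a named gene. Over named genes and alternatives, 799 values kept their side of the threshold and 7 passed it, all of Mcoln3 or S1pr1. No direction of a called gene was reversed.

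Counts in other comparisons depended on the unstimulated arrays. BC-R3 minus B6 without flagellin (5513, or 30.3%) gave 502 at 2-fold, 11939 with all probe sets and 7 in its own arrays alone. It gave 2757 to 6604 leaving out arrays, and the fewest were left without BC-R3 array 3. A fit without unstimulated arrays 2 and 3 of B6 and C3Bir leaves 1 array in each of those groups. Its counts for comparisons of those groups are not given. The difference between conditions (1917) gave 289 at 2-fold, 1157 with quantile normalization and 3624 with all probe sets. It gave 0 in its own arrays (4464 at an unadjusted p under 0.05). Without array 1 of the unstimulated B6, BC-R3 and C3Bir groups the count was 5669, and leaving out arrays it was 40 to 4231. C3Bir minus CB-R1 (10) gave 25 with all probe sets, 61 in its own arrays and 111 without unstimulated array 1. It gave 21 with the replicate block and 5 to 74 leaving out arrays. The difference between backgrounds (3) gave 8 with median centring, 5 with all probe sets, without unstimulated array 1 and with the replicate block, 0 in the flagellin arrays alone (1422) and 0 to 8 leaving out arrays. C3Bir minus B6 (1207) gave 175 at 2-fold, 2559 with all probe sets, 665 in its own arrays, 2030 without unstimulated array 1 and 785 to 1317 leaving out arrays. The cause of these changes was not tested. With 3 arrays per group, signal near the lower quartile limits what can be said of the low side of Ifi44l and Gbp2b.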
